A study of Homo sapiens with 6 samples.

Results

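The genes described here encode the enzymes and subunits that build, attach and trim asparagine-linked glycans (N-glycans). They were given as a list of 52 gene symbols, and all 52 were matched to an Ensembl gene and were among the 15607 genes tested, of 26613 genes listed in any library. RNA-seq counts per gene came from 6 cultures of 293T cells, a line derived from human embryonic kidney cells and widely used because it takes up nucleic acids well. To 3 cultures a double-stranded miR-941 mimic was given at 10 nM (mimic), and to 3 a scrambled oligonucleotide (mock). Both groups were plated 24 h before transfection and carried with the same cationic lipid. No concentration is recorded for the scrambled oligonucleotide and its sequence was not given in the sources used here, so each difference below is one between the cells given these oligonucleotides. The model is a single cell line, and the time from transfection to harvest was not given in the sources used here.

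An N-glycan is first assembled on the lipid dolichol in the membrane of the endoplasmic reticulum (ER), from GDP-mannose, UDP-GlcNAc and dolichol-linked sugars. The oligosaccharyltransferase moves the finished glycan as a block onto asparagines of proteins that enter the ER. Glucosidases then remove its glucoses, which times the binding of the chaperones calnexin and calreticulin, and mannosidases and GlcNAc transferases of the ER and Golgi turn it into hybrid and complex forms. Defects in many of these genes cause congenital disorders of glycosylation.

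The agent that separated the groups is shown first, since its seed fixes which sequence was searched in the genes' transcripts. The mature strand is annotated at 5 loci on chromosome 20, among them chr20:63919495-63919517 (plus strand, GRCh38.p14, from RefSeq), and the capitals mark its bases 2 to 8, the seed:
hsa-miR-941: cACCCGGCugugugcacaugugc
The site complementary to the seed is GCCGGGT. It was found in the longest annotated 3′ UTR of 2 of the 52 genes, or 3.85%, against 634 of 13015 tested genes with a 3′ UTR, or 4.87%. One of these genes was called lower, and its site is not reported here. The other, MGAT1, was not called, and its site is shown with 11 bases on each side and the site in capitals (GENCODE release 29, GRCh38):
MGAT1, chr5:180786934-180786940, minus strand: atagaaaggggGCCGGGTagtgccaaggc
The MGAT1 site lies in exon 3 of 3, at base 4694 of a 3′ UTR of 6852 bases, and is followed by an A (an 8mer). With any annotated 3′ UTR in place of the longest, DPM2 was added, giving 3 genes. A match of at least 6 bases, CCGGGT, was present in 7 of the 52 genes, or 13.5%, against 13.4% of the tested genes. A match describes the letters only and does not show that the site was bound.

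Total counts ran from 6401918 to 7651046 in the mimic group and from 6079420 to 7405330 in the mock group. Levels are CPM, the counts of a gene scaled by library size and TMM factor, errors of levels are SDs over 3 libraries, and log2 fold changes are mimic over mock with their standard errors. A gene is called changed where edgeR's quasi-likelihood test gave an adjusted p under 0.05 (Benjamini-Hochberg, over all 15607 genes). Of 7 genes typical of 293T cells, 5 were counted, among them VIM, NEFM, INA and PAX2. LHX1 and NEFL were not matched to a row under the gene IDs used here and were not analysed here. NEFM was higher in the mimic group, at 81.8 ± 2.90 against 55.9 ± 2.14 CPM. Of 11 markers of other cell types, PTPRC, PECAM1 and HBB were not listed under the gene IDs used here, which may differ from those of the authors' annotation, 6 had between 1 and 21 counts over the 6 libraries together, and COL1A1 and CD68 passed the filter on low counts. Their levels were 38.1 ± 2.64 against 36.3 ± 1.43 CPM for COL1A1 and 20.6 ± 1.68 against 16.0 ± 1.01 CPM for CD68, which was called higher in the mimic group. The part of these differences in the results below was not tested. Per the labels, each library is an independent replicate. Mimic replicate 3 stood apart from the other mimic libraries, differing from them by 2.04 and 2.38 times sampling variation, where the other pairs within a group differed by 1.27 to 1.52 times. Without it 10 of the 12 calls described below remained, where 13.0% of all tested genes were called.

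Cells given the mimic had more mRNA for both subunits of glucosidase II and less for the Golgi mannosidase MAN1A1. GANAB, the catalytic subunit of glucosidase II, was 2.11-fold higher, and MAN1A1 stood at 0.630 of its mock level. Of the 52 genes 5 rose and 7 fell, together 23.1%, where 13.0% of all tested genes were called. The background was 6.80% for rises and 6.19% for falls. The median log2 fold change was −0.03 over the 52 genes and 0.00 over all tested genes, and 40 of the 52 genes did not pass, with estimates from −0.31 to 0.13. The genes that rose were GANAB, PRKCSH, MGAT5, ALG6 and NUS1, and those that fell were MAN1A1, RPN2, UGGT1, MGAT4B, GMPPB, DHDDS and ALG10B. Of the 7 genes with CCGGGT in the longest 3′ UTR, 2 were called, both lower, where 17.6% of the 1740 tested genes with such a match were called in either direction. In bulk counts of a culture, a change in the number of cells that make an mRNA and a change in its amount per cell cannot be told apart.

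In 20 of the 52 genes the groups did not overlap, with the mimic group above in 7 and below in 13, where 28.3% of all tested genes had no overlap (14.4% above and 13.9% below). An unadjusted p under 0.05 was found for 16 of the 52 genes, where 25.5% of all tested genes had one. The 12 called genes were among these 20. DESeq2's Wald test called 5 of the 52 genes, 3 higher and 2 lower, where it called 6.50% of all tested genes (3.31% higher and 3.20% lower). All 5 were also called by edgeR: GANAB, PRKCSH, MGAT5, MAN1A1 and RPN2. The same 5 genes were called without mock replicate 3, where 8.68% of all tested genes were called. Without mimic replicate 1, 7 of the 12 calls remained, where 9.14% of all tested genes were called. Without mock replicate 2, 7 genes were called, 6 of the 12 and DPM3, where 10.1% of all tested genes were called. GANAB, MAN1A1, PRKCSH and MGAT5 kept their calls under all 13 alternatives that were run.

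**Figure D1:**
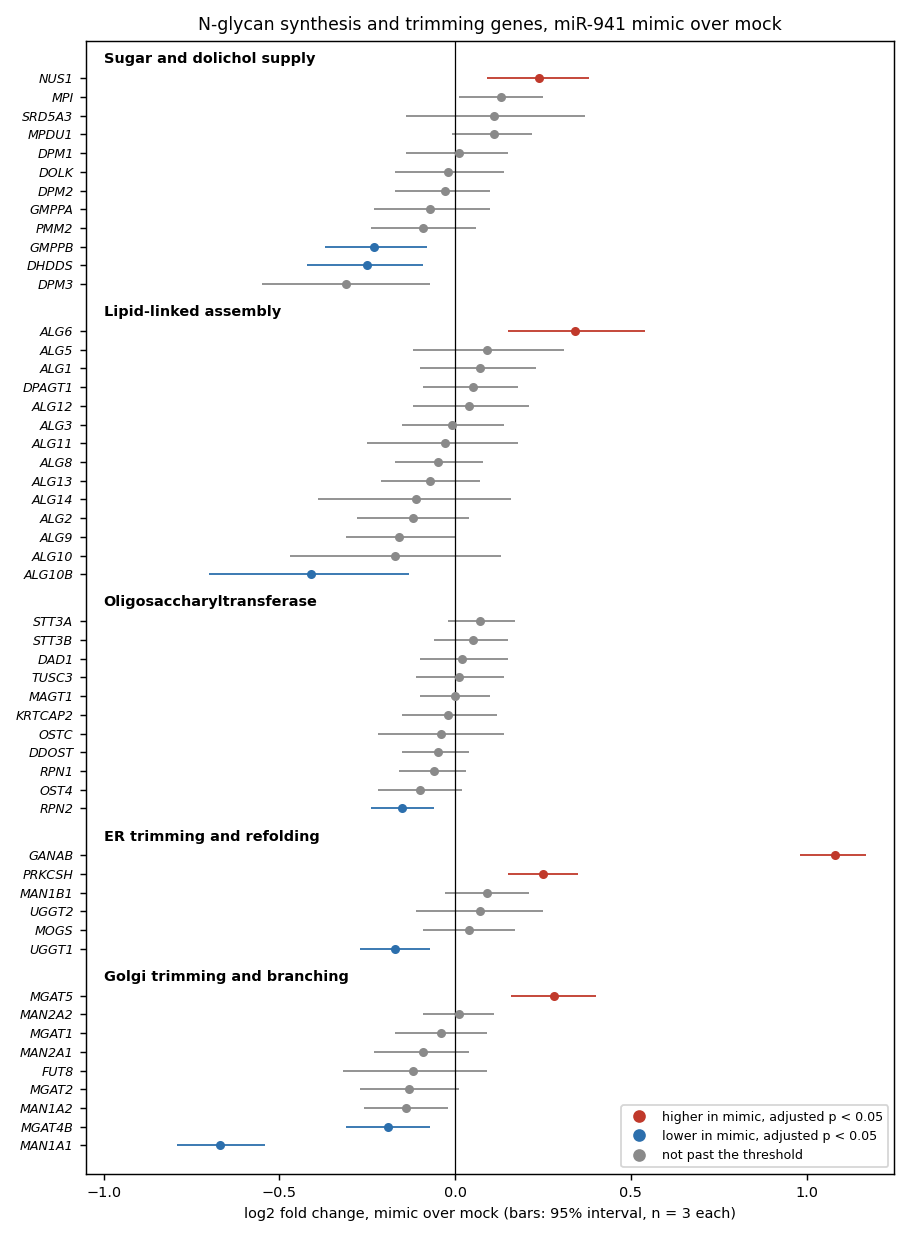
Log2 fold change of each of the 52 genes, mimic over mock (x axis), by role in the pathway (y axis); dots are estimates and bars their 95% intervals, with 3 libraries a group. GANAB at 1.08 and MAN1A1 at −0.67 lie apart from the other genes, whose estimates run from −0.41 to 0.34.

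**Figure D2:**
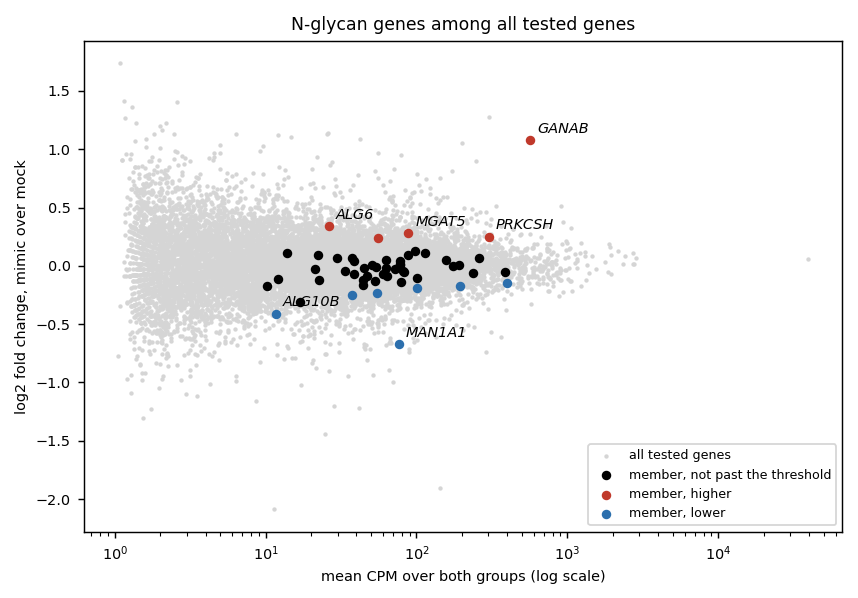
Log2 fold change, mimic over mock (y axis), against the mean CPM over both groups on a log scale (x axis); each grey dot is 1 of the 15607 tested genes and larger dots are the 52 N-glycan genes. The N-glycan genes have mean levels from 10.2 to 564 CPM. GANAB has their largest fold change and is the highest in this mean, which includes its rise. In the mock group GANAB (363 CPM) was below RPN2 (419 CPM) and DDOST (393 CPM).

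Trimming and refolding in the ER held the largest rise. MOGS, glucosidase I, removes the outermost glucose, glucosidase II removes the inner ones, UGGT1 and UGGT2 put a glucose back onto misfolded glycoproteins, and MAN1B1 removes a mannose. Of these 6 genes 2 rose and 1 fell, with a median log2 fold change of 0.08.

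GANAB (ENSG00000089597, chromosome 11 at 62624826 to 62646726, minus strand, GRCh38) had 794, 797 and 708 CPM in the mimic libraries, against 371, 366 and 351 CPM in the mock libraries. These levels rest on 6019, 5708 and 4495 counts in the mimic group and 2738, 2634 and 2139 counts in the mock group. Every mimic library was far above every mock library. The log2 fold change was 1.08 ± 0.05 (edgeR adjusted p = 6.02e-29), the third smallest p of all tested genes. Across the 13 alternatives it lay between 1.05 and 1.13, the highest value being that without mimic replicate 3, which had the lowest GANAB level of the mimic group. No stretch of 100 bases of its annotated transcripts occurred in those of another gene, and its exons overlapped those of no other tested gene. Its nearest tested neighbours outside its bounds, INTS5 at a gap of 122 bases and B3GAT3 at 2651 bases, had log2 fold changes of 0.10 ± 0.09 and −0.02 ± 0.08 and were not called. No CCGGGT was found in its longest 3′ UTR.

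PRKCSH, the regulatory subunit that keeps GANAB in the ER, rose by less. It had 346, 323 and 315 CPM in the mimic libraries, against 285, 258 and 285 CPM in the mock libraries. The groups did not overlap, and the log2 fold change was 0.25 ± 0.05 with an edgeR adjusted p of 8.56e-05. The ratio of GANAB to PRKCSH in CPM was 2.29, 2.47 and 2.25 in the mimic libraries, against 1.30, 1.42 and 1.23 in the mock libraries. The log2 ratio thus differed by 0.83, above its SDs of 0.07 in the mimic group and 0.10 in the mock group. The exact permutation test gave p = 0.1 (two-sided), the smallest that 3 against 3 libraries allow, and an adjusted p of 0.16 over the 8 pairs compared. Exons of PRKCSH overlap those of ODAD3 on the opposite strand by 1.24% of their length, and ODAD3 was counted at 2.89% of its level.

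UGGT1, the main folding sensor, fell in the mimic group. Its levels were 181, 187 and 179 CPM in the mimic libraries, against 190, 207 and 218 CPM in the mock libraries. The highest mimic library and the lowest mock library were close, and the groups did not overlap. The log2 fold change was −0.17 ± 0.05 with an edgeR adjusted p of 0.0175. The call ended without mock replicate 3 (edgeR adjusted p = 0.192), without mimic replicate 1 (0.0752), without mock replicate 2 (0.0624) and under DESeq2 (0.0748). Its paralog UGGT2 was near 30 CPM in both groups, with a log2 fold change of 0.07 ± 0.09 that was not called. The ratio of UGGT1 to UGGT2 was 6.29, 5.72 and 5.85 in the mimic libraries, against 6.70, 6.58 and 7.88 in the mock libraries, with an exact permutation p of 0.1 (adjusted 0.16 over the 8 pairs).

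The other genes of this step did not pass. MAN1B1 had 92.3, 95.1 and 84.2 CPM in the mimic libraries, against 82.6, 85.1 and 88.9 CPM in the mock libraries, and the groups overlapped. Its log2 fold change was 0.09 ± 0.06, with a 95% interval from −0.03 to 0.21. MOGS, which acts just before glucosidase II, averaged 78.1 ± 6.84 CPM in the mimic group and 76.3 ± 3.19 CPM in the mock group (SD, n = 3 each), with an interval from −0.09 to 0.17.

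**Figure D3:**
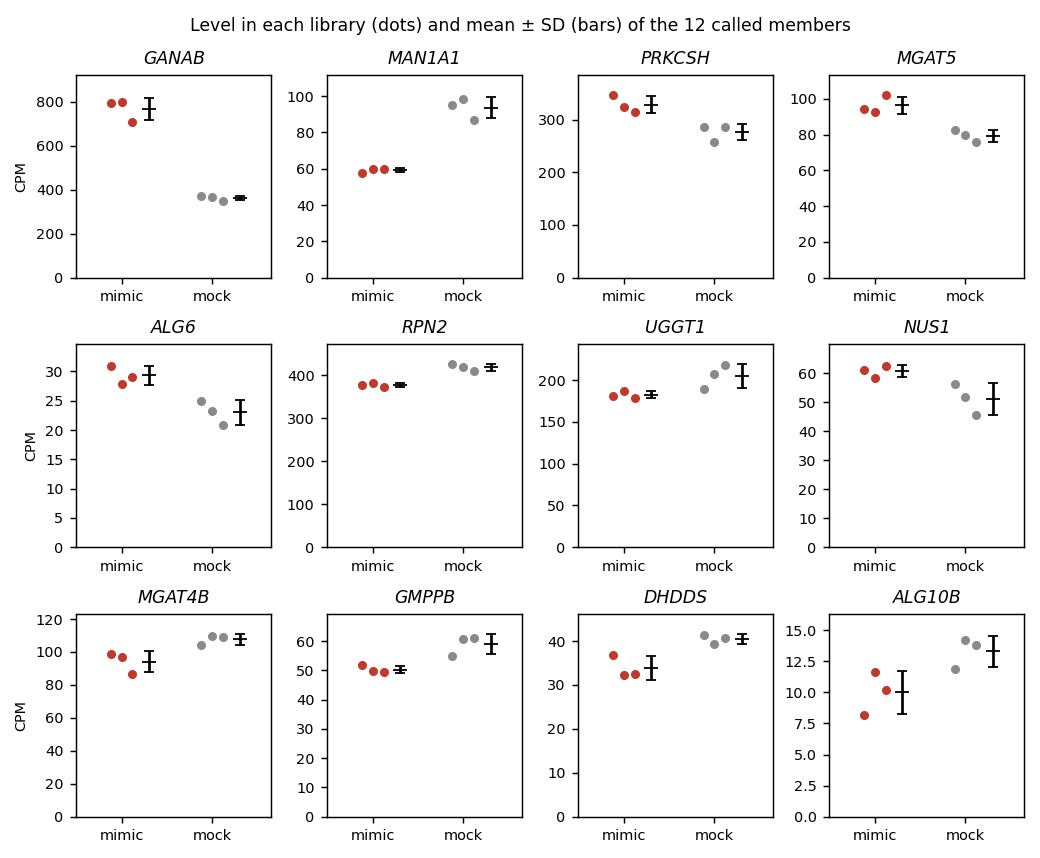
Level in CPM (y axis, from 0) of the 12 called genes in each mimic library (red) and each mock library (grey), with the mean and SD of each group beside the dots. Relative to their level, GANAB and MAN1A1 show the widest gaps between the groups, and in ALG10B, UGGT1 and NUS1 the nearest libraries of the groups come close.

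Trimming and branching in the Golgi held the largest fall. Mannosidases of class I (MAN1A1, MAN1A2) cut the glycan down, MGAT1 adds the GlcNAc that opens the way to hybrid and complex forms, class II mannosidases (MAN2A1, MAN2A2) trim further, and MGAT2, MGAT4B and MGAT5 start further branches. FUT8 adds the core fucose. Of these 9 genes 1 rose and 2 fell, together 33.3%, where 13.0% of all tested genes were called. The median log2 fold change was −0.12.

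MAN1A1 had 57.8, 59.8 and 60.0 CPM in the mimic libraries, against 95.2, 98.6 and 87.0 CPM in the mock libraries. The groups lay well apart, and the log2 fold change of −0.67 ± 0.06 had an edgeR adjusted p of 6.38e-13. It stayed between −0.71 and −0.63 across the 13 alternatives. No CCGGGT was found in its longest 3′ UTR. Its paralog MAN1A2 had 76.0, 74.3 and 74.6 CPM in the mimic libraries, against 81.9, 82.6 and 83.9 CPM in the mock libraries. That difference, −0.14 ± 0.06 on the log2 scale, did not pass (edgeR adjusted p = 0.119) although the groups did not overlap. The ratio of MAN1A1 to MAN1A2 was 0.760, 0.805 and 0.804 in the mimic libraries, against 1.16, 1.19 and 1.04 in the mock libraries. In CPM not divided by length, MAN1A1 was thus below MAN1A2 in each mimic library and above it in each mock library. The exact permutation test gave p = 0.1, adjusted 0.16 over the 8 pairs. Per kilobase of annotated exon length MAN1A1 was above MAN1A2 in both groups. The means were 11.8 against 7.75 CPM per kb in the mimic group and 18.7 against 8.57 CPM per kb in the mock group.

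MGAT5, which starts the β1,6 branch found on many tumour cells, rose. It had 94.4, 92.9 and 102 CPM in the mimic libraries, against 82.5, 79.7 and 75.9 CPM in the mock libraries. The groups did not overlap, and the log2 fold change was 0.28 ± 0.06 (edgeR adjusted p = 0.000557). MGAT4B, which starts the β1,4 branch on the other arm, fell to 98.9, 96.7 and 86.7 CPM in the mimic libraries, against 104, 110 and 109 CPM in the mock libraries. Its log2 fold change was −0.19 ± 0.06 (edgeR adjusted p = 0.0202). That call ended without mimic replicate 3 (edgeR adjusted p = 0.102), without mock replicate 3 (0.0857), without mock replicate 2 (0.0794) and under DESeq2 (0.0938). Exons of MGAT4B overlap those of SQSTM1 on the opposite strand by 1.91% of their length.

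MGAT1, which has the 8mer site, averaged 80.4 ± 7.90 CPM in the mimic group and 83.0 ± 2.28 CPM in the mock group, with a 95% interval of the log2 fold change from −0.17 to 0.09. MAN2A2 was the uncalled Golgi gene with the highest mean CPM, not divided by length. Its levels were 198, 193 and 187 CPM in the mimic libraries, against 186, 195 and 193 CPM in the mock libraries. The groups overlapped, and the log2 fold change was 0.01 ± 0.05. MAN2A1, MGAT2 and FUT8 had log2 fold changes of −0.09 ± 0.07, −0.13 ± 0.07 and −0.12 ± 0.10 and were not called. The ratio of MAN2A1 to MAN2A2 was 0.315, 0.326 and 0.314 in the mimic libraries, against 0.330, 0.348 and 0.349 in the mock libraries, without overlap (exact permutation p = 0.1, adjusted 0.16 over the 8 pairs).

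The listed genes of the oligosaccharyltransferase were the most even group. STT3A and STT3B are the catalytic subunits of separate complexes, OSTC and KRTCAP2 belong to the STT3A complex, TUSC3 and MAGT1 are alternative oxidoreductases of the STT3B complex, and RPN1, RPN2, DDOST, DAD1 and OST4 are shared. Of these 11 genes none rose and 1 fell, or 9.09%, where 13.0% of all tested genes were called. The median log2 fold change was −0.02. The 95% intervals of the 10 uncalled genes all lay between −0.22 and 0.17.

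RPN2, the subunit that fell, had 378, 382 and 372 CPM in the mimic libraries, against 426, 420 and 410 CPM in the mock libraries. The groups did not overlap, and the log2 fold change was small, −0.15 ± 0.04, with an edgeR adjusted p of 0.0160. The call ended without mock replicate 1 (edgeR adjusted p = 0.0941), without mimic replicate 1 (0.0605) and without mock replicate 2 (0.0580). RPN1, its partner, had a log2 fold change of −0.06 ± 0.05 and was not called. The ratio of RPN1 to RPN2 was 0.621, 0.597 and 0.621 in the mimic libraries, against 0.559, 0.579 and 0.592 in the mock libraries, a log2 difference of 0.09 (exact permutation p = 0.1, adjusted 0.16 over the 8 pairs).

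DDOST was the uncalled subunit with the highest mean CPM, not divided by length. It had 390, 381 and 363 CPM in the mimic libraries, against 408, 376 and 395 CPM in the mock libraries, and the groups overlapped. STT3A averaged 265 ± 2.07 CPM in the mimic group and 252 ± 1.86 CPM in the mock group, and did not pass although the groups did not overlap. STT3B averaged 159 ± 9.48 CPM in the mimic group and 154 ± 2.82 CPM in the mock group. Their ratio was 1.61, 1.80 and 1.59 in the mimic libraries, against 1.68, 1.60 and 1.64 in the mock libraries (exact permutation p = 0.9). TUSC3 and MAGT1 had log2 fold changes of 0.01 ± 0.06 and −0.00 ± 0.05. The ratio of TUSC3 to MAGT1 was 0.443, 0.439 and 0.467 in the mimic libraries, against 0.459, 0.452 and 0.422 in the mock libraries (exact permutation p = 0.8).

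**Figure D4:**
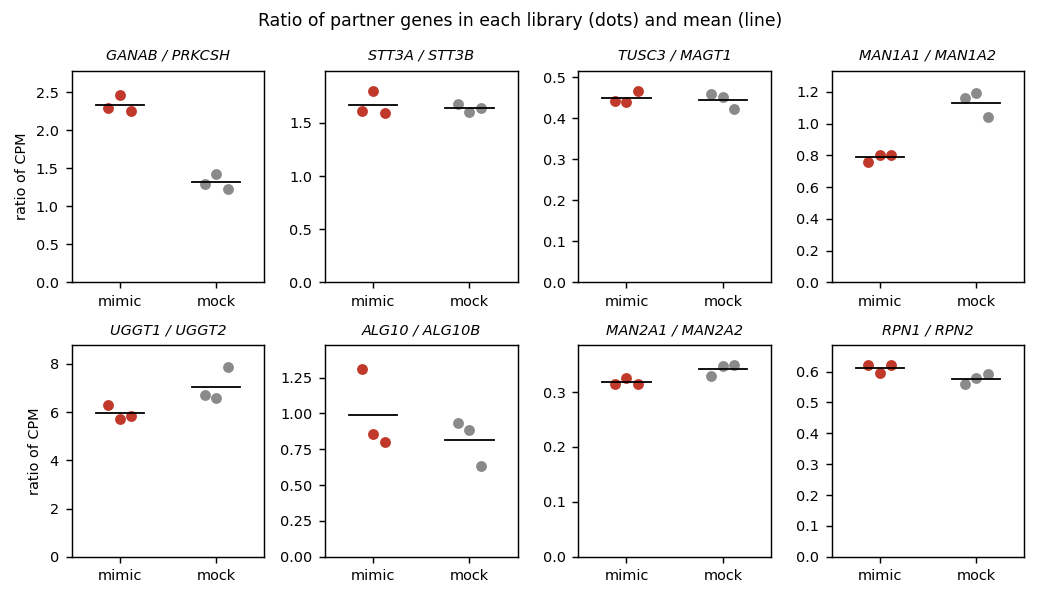
Ratio of the CPM of partner or paralogous genes (y axis, from 0) in each mimic library (red) and each mock library (grey), with the group mean as a line. The ratio of GANAB to PRKCSH is at least 2.25 in mimic libraries and at most 1.42 in mock libraries, and that of MAN1A1 to MAN1A2 is at most 0.805 against at least 1.04; the ratios of STT3A to STT3B and of TUSC3 to MAGT1 overlap between the groups.

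Supply of sugars and dolichol showed small changes in both directions. MPI, PMM2 and the GMPPA and GMPPB pair make GDP-mannose. DHDDS and NUS1 together form the cis-prenyltransferase that makes the dolichol backbone, SRD5A3 and DOLK finish dolichol phosphate, and DPM1, DPM2 and DPM3 load it with mannose. MPDU1 is needed for the use of the loaded carrier. Of these 12 genes 1 rose and 2 fell, together 25.0%, where 13.0% of all tested genes were called. The median log2 fold change was −0.02.

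The partners of the cis-prenyltransferase moved in opposite directions. NUS1 had 61.1, 58.4 and 62.5 CPM in the mimic libraries, against 56.3, 51.9 and 45.4 CPM in the mock libraries, a log2 fold change of 0.24 ± 0.07 (edgeR adjusted p = 0.0195). DHDDS had 36.9, 32.3 and 32.4 CPM in the mimic libraries, against 41.4, 39.3 and 40.7 CPM in the mock libraries, a log2 fold change of −0.25 ± 0.08 (edgeR adjusted p = 0.0316). In neither gene did the groups overlap. The NUS1 call ended without mock replicate 3 (edgeR adjusted p = 0.206), without mimic replicate 1 (0.0681) and under DESeq2 (0.115). The DHDDS call ended without mimic replicate 2 (edgeR adjusted p = 0.123) or 3 (0.0764), without mock replicate 1 (0.119), 2 (0.0501) or 3 (0.0843), and under DESeq2 (0.143). Of the 100-base stretches in NUS1 transcripts, 9.55% also occur in the pseudogene NUS1P1, so its counts are less certain.

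GMPPB, the catalytic subunit for GDP-mannose, had 51.8, 49.7 and 49.4 CPM in the mimic libraries, against 55.1, 60.9 and 61.1 CPM in the mock libraries. The groups did not overlap, with a log2 fold change of −0.23 ± 0.07 (edgeR adjusted p = 0.0227). The call ended without mimic replicate 2 (edgeR adjusted p = 0.0638), without mock replicate 2 (0.108) or 3 (0.107) and under DESeq2 (0.112). The change is uncertain as to its gene, because 42.3% of the annotated exon length of GMPPB is shared on the same strand with AMIGO3. AMIGO3 was counted at 99.5% of its level, with the same log2 fold change of −0.23. Its regulatory partner GMPPA averaged 37.8 ± 3.17 CPM in the mimic group and 39.7 ± 2.91 CPM in the mock group and was not called.

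DPM3, the tether of the mannose synthase, did not pass. It had 14.6, 15.8 and 15.1 CPM in the mimic libraries, against 22.0, 16.7 and 17.7 CPM in the mock libraries, with a log2 fold change of −0.31 ± 0.12 (edgeR adjusted p = 0.0735). Mock replicate 1 was the highest library, and without it the log2 fold change was −0.18 (edgeR adjusted p = 0.493). DPM3 passed without mock replicate 2 (edgeR adjusted p = 0.0376), at −0.40. DPM1, the catalytic subunit, had a log2 fold change of 0.01 ± 0.07 and DPM2 of −0.03 ± 0.07. MPDU1 was the uncalled gene of this step with the highest mean CPM, not divided by length. It had 112, 114 and 126 CPM in the mimic libraries, against 108, 106 and 113 CPM in the mock libraries, and the groups overlapped.

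Assembly on the lipid was nearly even between the groups. DPAGT1 starts the chain, the pair ALG13 and ALG14 adds the next GlcNAc, and ALG1, ALG2, ALG11, ALG3, ALG9 and ALG12 add mannoses. ALG5 makes the glucose donor, and ALG6, ALG8 and the copies ALG10 and ALG10B add the glucoses in that order. Of these 14 genes 1 rose and 1 fell, together 14.3%, near the 13.0% of all tested genes that were called. The median log2 fold change was −0.04. The log2 fold changes of the 12 uncalled genes lay between −0.17 and 0.09.

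ALG6 lay between 27.9 and 31.0 CPM in the mimic libraries, against 20.8, 23.2 and 25.0 CPM in the mock libraries. The groups did not overlap, and the log2 fold change was 0.34 ± 0.10 with an edgeR adjusted p of 0.0102. The call ended without mock replicate 3 (edgeR adjusted p = 0.0874), without mimic replicate 1 (0.0812) and under DESeq2 (0.0773). ALG8, which adds the next glucose, had 80.8, 78.1 and 85.6 CPM in the mimic libraries, against 88.0, 79.1 and 85.1 CPM in the mock libraries, and was not called.

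ALG10B, among the least abundant of the 52 genes, had 8.18, 11.6 and 10.2 CPM in the mimic libraries, against 11.9, 14.2 and 13.8 CPM in the mock libraries. The nearest libraries of the groups were almost level, at a log2 fold change of −0.41 ± 0.14 (edgeR adjusted p = 0.0444). The call ended without mimic replicate 1 (edgeR adjusted p = 0.310), without mock replicate 2 (0.167) or 3 (0.130), with upper quartile scaling (0.0516) and under DESeq2 (0.191). ALG10 averaged 9.60 ± 1.28 CPM in the mimic group and 10.8 ± 1.94 CPM in the mock group and was not called. The copies share sequence: 6.53% of the 100-base stretches of ALG10 transcripts occur in those of ALG10B, so that reads can pass between them and both are uncertain. Their ratio was 1.31, 0.855 and 0.800 in the mimic libraries, against 0.932, 0.882 and 0.631 in the mock libraries, with no separation (exact permutation p = 0.6).

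Per kilobase of annotated exon length, the groups had different genes at the top. GANAB stood at 152 ± 10.1 CPM per kb in the mimic group, the highest of the 52 genes, and at 72.1 ± 2.14 CPM per kb in the mock group, the fifth. Both genes being counted in the same libraries, these SDs do not measure the spread of its lead over DDOST in the mimic group, which was not tested. The shared transferase subunits followed in the mimic group, with DDOST at 139 ± 5.05, OST4 at 136 ± 3.47 and RPN2 at 134 ± 1.78 CPM per kb. Their order was not tested. In the mock group RPN2 (149 ± 2.89), OST4 (146 ± 10.3) and DDOST (144 ± 5.96) led, in an order that was not tested either. ALG10B was the lowest in both groups, at 0.874 ± 0.150 CPM per kb in the mimic group and 1.16 ± 0.104 CPM per kb in the mock group. The lengths are unions of all annotated exons, which understates genes with long rare exons. Exons of OST4 overlap those of AGBL5 on the opposite strand by 21.0% of their length, and AGBL5 was counted at 171% of its level. Exons of DDOST overlap those of PINK1-AS on the same strand by 15.7% of their length, and PINK1-AS was counted at 28.1% of its level.

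Levels were also summed over each step. The 6 genes of ER trimming and refolding together had 1522, 1520 and 1386 CPM in the mimic libraries, against 1034, 1021 and 1050 CPM in the mock libraries. Without GANAB the other 5 genes of that step had 728, 722 and 679 CPM in the mimic libraries, against 662, 654 and 699 CPM in the mock libraries, and the groups overlapped. The 9 Golgi genes had 738, 742 and 716 CPM in the mimic libraries, against 775, 795 and 779 CPM in the mock libraries. Of these sums MAN1A1 made up 57.8, 59.8 and 60.0 CPM in the mimic libraries, against 95.2, 98.6 and 87.0 CPM in the mock libraries. The Golgi genes were not summed without MAN1A1. The transferase subunits had 1958, 1937 and 1907 CPM in the mimic libraries, against 2005, 1976 and 1988 CPM in the mock libraries. For all 52 genes the sums were 5388, 5361 and 5180 CPM in the mimic libraries, against 4999, 4963 and 4979 CPM in the mock libraries. Without GANAB the sums were 4595, 4564 and 4473 CPM in the mimic libraries, against 4627, 4597 and 4628 CPM in the mock libraries.

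Promoters were searched because GANAB and PRKCSH rose together and because genes of ER proteins often carry ER stress elements. The windows run from 250 bases before to 50 bases after the annotated start (RefSeq, GRCh38.p14), and 46 of the 52 genes had one. ALG10, STT3B, RPN1, TUSC3, MOGS and MAN1A2 were not analysed here. Both strands were searched for the ER stress element (CCAAT and CCACG with 9 bases between them), its variant ERSE-II (ATTGG and CCACG with 1 base between them) and the unfolded protein response core TGACGTGG. All 3 motifs end in or contain the letters of CCACG on one strand, and matches can overlap. They are present in 0.0806%, 0.0549% and 0.795% of 27305 promoters. ALG12 had the ER stress element, DHDDS had the core on the opposite strand, and none of the 46 genes had the variant. Both matches are shown in capitals with their flanks:
ALG12, in chr22:49918389-49918688, minus strand: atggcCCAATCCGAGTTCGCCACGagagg
DHDDS, in chr1:26432071-26432370, plus strand: ttctgccagcgCCACGTCAtgaggaagtgc
ALG12 was not called, at 0.04 ± 0.08 on the log2 scale, and DHDDS fell. Exons of ALG12 overlap those of CRELD2 on the opposite strand by 3.14% of their length. CRELD2 had a log2 fold change of 0.13 and was not called (edgeR adjusted p = 0.258). To which of these 2 genes the element belongs was not tested. The windows of GANAB and PRKCSH held no complete match to any of the 3 motifs, which says nothing on the factors that bind such elements. Parts of the motifs were not searched.

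Genes of neighbouring steps were described from lists that hold 59 genes, all of them tested. Of these 6 rose and 8 fell, together 23.7%, where 13.0% of all tested genes were called (6.80% higher and 6.19% lower), with a median log2 fold change of −0.05. Counts and directions are given by step. Among 18 genes that make and move sugar nucleotides 4 fell and none rose. GNPNAT1, which acetylates glucosamine phosphate on the way to UDP-GlcNAc, had 50.5, 46.5 and 48.6 CPM in the mimic libraries, against 65.5, 66.2 and 68.2 CPM in the mock libraries, a log2 fold change of −0.45 ± 0.07 (edgeR adjusted p = 7.99e-07). NAGK, which salvages GlcNAc, had a log2 fold change of −0.31 ± 0.07 and SLC35A1, the Golgi carrier of CMP-sialic acid, of −0.34 ± 0.10, and GMDS, which starts GDP-fucose synthesis, was the other. The SLC35A1 call ended without mock replicate 2 (edgeR adjusted p = 0.103), without mimic replicate 1 (0.0666) and under DESeq2 (0.0883), and 55.5% of its exon length is shared on the same strand with the gene ENSG00000213204. Without mimic replicate 1 the calls in the 59 genes numbered 9, where 9.14% of all tested genes were called.

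DOLPP1, which recycles dolichol pyrophosphate, fell to 43.3 ± 1.18 CPM in the mimic group, against 53.0 ± 1.92 CPM in the mock group. Among 7 partners of the transferase 1 fell, the subunit TMEM258, with a log2 fold change of −0.26 ± 0.09. That call ended without mock replicate 3 (edgeR adjusted p = 0.298), without mimic replicate 1 (0.148) or 3 (0.0787) and under DESeq2 (0.158), and FEN1, which overlaps it on the opposite strand, was counted at 435% of its level.

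In the lectin cycle and disposal list, 4 of 17 genes rose (CALR, CANX, PDIA3 and MAN2C1) and 1 fell. CALR, the soluble lectin that binds glycans with the single glucose left by glucosidase II, had a log2 fold change of 0.38 ± 0.04. MAN2C1, a cytosolic mannosidase for free glycans, had 0.24 ± 0.06, and EDEM1, which trims mannose on proteins bound for degradation, had −0.29 ± 0.07. Exons of MAN2C1 overlap those of NEIL1 on the opposite strand, and NEIL1 was counted at 33.2% of its level. In the list of Golgi branching and capping, 2 of 15 genes rose and 1 fell. B4GALT1, the main galactosyltransferase of N-glycans, averaged 74.8 ± 4.59 CPM in the mimic group and 48.2 ± 0.925 CPM in the mock group, a log2 fold change of 0.63 ± 0.07 (edgeR adjusted p = 6.18e-11). Its paralog B4GALT3 had −0.33 ± 0.07 on the same scale, and FUT4, a fucosyltransferase of antennae, 0.49 ± 0.12. Exons of B4GALT3 overlap those of PPOX on the opposite strand by 28.7% of their length. The strand setting of the counting was not given in the sources used here.

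**Figure D5:**
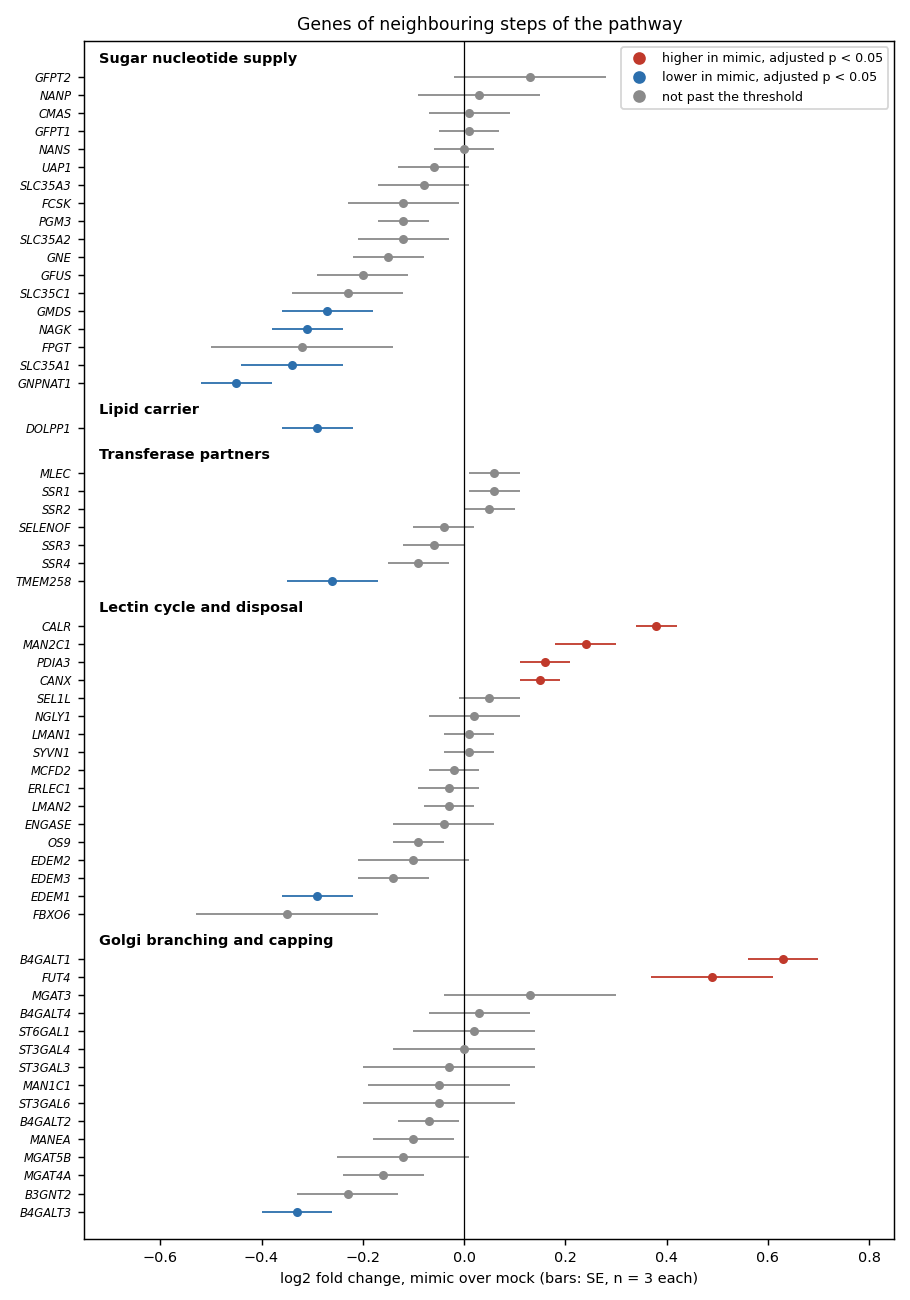
Log2 fold change of 58 of the 59 genes of neighbouring steps, mimic over mock (x axis), by list (y axis); dots are estimates and bars standard errors, with 3 libraries a group. B4GALT1 at 0.63 is the highest and GNPNAT1 at −0.45 the lowest, and the called genes of sugar nucleotide supply all lie below 0.

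The positions of the called genes were compared with their surroundings. For each of the 12, the nearest tested gene outside its bounds was taken on either side, at gaps of up to 4270 kb (at ALG10B). Of these 24 neighbours 3 were called, a share near the 13.0% of all tested genes. Genes that overlap one of the 12 were left out, among them AMIGO3, which overlaps GMPPB and had a log2 fold change of −0.23. IP6K1, 343 bases from GMPPB, fell by 0.23 on the log2 scale, MANBAL, 48.0 kb from RPN2, had −0.28 ± 0.07, and HMGN2, 1.16 kb from DHDDS, rose by 0.41 ± 0.05 while DHDDS fell. The nearest to MAN1A1, FAM184A at 27.8 kb and TBC1D32 at 1730 kb, had log2 fold changes of 0.02 ± 0.08 and 0.08 ± 0.14 and were not called.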

How the data were processed

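The authors deposited raw read counts per Ensembl gene, 1 table per library. Genes missing from a table were set to 0. STAR, edgeR and hg19 are named in the submitters' processing notes, and neither the counting program nor the annotation or strand setting was given in the sources used here. Per the labels' protocols, rRNA-depleted RNA was sequenced as single reads of 100 bases. Samples were grouped by title. The analysis kept 15607 genes (filterByExpr, 99.7% of counts), applied TMM factors (0.994 to 1.01) and tested the group term with edgeR's robust quasi-likelihood fit, two-sided. Standard errors come from the test statistic, and 95% intervals from the t distribution with the fit's degrees of freedom. At this depth 3 counts equal 0.392 to 0.493 CPM, and each of the 52 genes had at least 52 counts in every library. Tools were edgeR 4.0.16, DESeq2 1.42.0 and limma 3.58.1 in R 4.3.3. Tests of ratios used log2 CPM with a prior count of 2, and printed ratios are of plain CPM. Each library was treated as 1 replicate. Same-group libraries differed by 1.27 to 2.38 times the variation of sampling alone, which cannot by itself show that they came from separate cultures. The genes, lists and tests were chosen with earlier results of these data known, so counts over lists are descriptions. Named genes are all called genes and those with an adjusted p up to 0.1. Also named are the uncalled gene of each step with the highest mean CPM and up to 3 called genes per neighbouring list. Further members of ratio pairs, complexes and counts were named after their values were seen. The 3′ UTRs, exon lengths, overlaps and 100-base stretches come from GENCODE release 29 (GRCh38), a build other than the authors' hg19. Some genes and sequences of these lists are not reported here.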

Additional observations from a re-analysis of the deposited data

How the results depend on the processing

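Of 12 called genes, the same 12 were called with RLE factors, with library totals alone, without a filter on low counts and at a mean of at least 5 CPM, and 11 with upper quartile factors. DESeq2 called 5, of which 3 were higher and 2 lower. Leaving out 1 library gave 5 to 10 called genes, 3 to 5 higher and 2 to 5 lower. Without mock replicate 2 these were 7 genes, of which 6 were among the 12 and the other was DPM3. Over all tested genes the edgeR count was 2027, against 1015 with DESeq2 and 1302 to 2061 with 1 library left out. The 14 calls in the neighbouring lists became 9 to 13 with 1 library left out and 10 under DESeq2. The median log2 fold change of the 52 genes lay between −0.05 and 0.00 with 1 library left out, and that of MAN2A2, which was not called, between −0.01 and 0.03. Leaving out a library removes 1 of 6 samples from the fit, and beyond that the cause of these changes was not tested. The log2 differences of the 8 ratios moved by less than their spread at a prior count of 0.5 and with each library left out. Same-numbered libraries did not deviate together (correlations 0.044, −0.051 and −0.017), so the numbers were not taken as pairing, and the fit with a replicate block called the same 12 genes. Depth limits the least abundant genes most: the 95% interval of the log2 fold change ran from −0.47 to 0.13 for ALG10 and from −0.70 to −0.13 for ALG10B.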
